A study of Mus musculus with 10 samples.

Results

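Cholesterol synthesis and its control by SREBP2 were followed here through 28 mouse genes chosen by name: 18 enzymes from the first condensation of acetyl-CoA to cholesterol, the scaffold protein Erg28, the isoprenoid branch enzyme Ggps1, the 4 control genes Srebf2, Scap, Insig1 and Insig2, and the transport genes Stard4, Abca1, Npc1 and Npc2. All 28 were found among the 26401 genes of the deposited count table, and all 28 were among the 12964 genes that passed the low-count filter. The libraries were poly(A) RNA-seq of immortalized mouse embryonic fibroblasts, labelled with the strain C57Bl/6N, whose mitochondrial DNA carries a C-to-T change at position 5024, in the gene of the mitochondrial alanine tRNA (mt-Ta). Heteroplasmy is the state in which mutant and normal mitochondrial genomes coexist in a cell, and the study compared 5 clones labelled high with 5 clones labelled low for the mutant share, 1 library each. Each library was 1 clone, so other differences between clones cannot be told apart from heteroplasmy except through the 5 clones of a group, and p-values measure the spread between clones. Both groups carry the mutation, so there is no group without it, and the mutant share of each clone was not used here. All 10 clones were grown in the same medium, high-glucose DMEM with 10% fetal bovine serum and 50 µg/ml uridine, at 37 °C and 5% CO2. Serum supplies lipoprotein cholesterol, and uridine is added for cells with weak mitochondrial respiration. Clones are named below by group and by the submitters' replicate number, low 1 to 5 and high 1 to 5.

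Cells make cholesterol from acetyl-CoA by way of mevalonate, the isoprenoid diphosphates, squalene and lanosterol. The genes of these enzymes share a transcription factor, SREBP2, the product of Srebf2, which is made as a precursor held in the endoplasmic reticulum by the cholesterol sensor SCAP and the INSIG proteins. When membrane cholesterol is low, SCAP carries the precursor to the Golgi, where it is cleaved, and the released fragment enters the nucleus and binds sterol regulatory elements in the promoters of the pathway. Sterol excess acts in the opposite direction and, through oxysterols and the nuclear receptor LXR, raises export genes such as Abca1. In fibroblasts grown with serum both supply routes, synthesis and uptake from lipoproteins, are normally in use.

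Total counts per library ran from 17318372 to 28208576. Collagen Col1a1, a fibroblast product, stood between 3435 and 5863 CPM (a library's counts divided by its TMM-adjusted size) in the low clones and between 3310 and 7320 CPM in the high clones, whereas Lum, Postn and, in the low clones, Thy1 (at most 0.326 CPM) were at or near 0. Of 10 fibroblast markers tested, 6 had values above 0 and 4 below. None was called by edgeR, and DESeq2 and limma-voom each called 1 lower. Dcn had the lowest, -3.59 (2.00 and 0.172 CPM in the low and high clones, adjusted p = 0.0534 in edgeR). Col1a2 varied widely, from 72.9 to 886 CPM in the low and from 1.98 to 614 CPM in the high clones. Ptprc, Cdh5 and Sox10, defining genes of blood, endothelial and glial cells, were at 0 in all 10 libraries. Other markers did differ: the neural genes Nes (299 and 119 CPM in the low and high clones) and Tubb3 (19.6 and 6.70 CPM) fell and the epithelial Krt18 rose (0.477 and 119 CPM), with adjusted p-values of 0.0159, 0.0378 and 0.00895 in edgeR. The other epithelial markers tested were lower in the high clones and not called. Krt19 stood at 563 and 214 CPM without overlap (adjusted p = 0.0509 in edgeR). Krt8 (4.67 and 1.81 CPM) and Cdh1 (2.10 and 0.318 CPM) each had an adjusted p of 0.0926 in edgeR. The 6 epithelial markers summed to 454 to 673 CPM in the low and 121 to 512 CPM in the high clones, the 6 neural markers to 302 to 334 and 77.3 to 204 CPM, and the macrophage and blood markers, Cd68 included, to 25.5 to 41.0 and 21.2 to 94.9 CPM; their part in the results below was not tested. Low 2 and low 3 stood apart in Gm42418, an RNA that overlaps ribosomal repeats, with 40941 and 8017 CPM against 745 to 1616 CPM in the other libraries. The expression of whole chromosomes also differed between clones. This was measured as the median deviation of a chromosome's genes from their own medians over the 10 libraries, for genes with a mean log2 CPM above 3. For chromosome 8 it was 0.26 ± 0.10 in the low and -0.31 ± 0.14 in the high clones, and for chromosome 14 it was 0.19 ± 0.17 and -0.20 ± 0.13 (log2, mean ± SD over 5 clones). Of 700 chromosome 8 genes tested, 193 fell and 0 rose, with 453 of the 700 at an unadjusted p under 0.05 (DESeq2 called 311 lower and 2 higher, limma-voom 205 and 0). Mvd and Msmo1 lie on chromosome 8 and Fdft1 on chromosome 14, so their values are also given with the chromosome's deviation in each library taken out (below, the chromosome-adjusted value).

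Of the 28 genes, Cyp51 and Msmo1 fell and Npc1 rose in the high clones by edgeR's quasi-likelihood test, with p adjusted by Benjamini-Hochberg over all genes tested and a threshold of 0.05. Those 3 of 28 compare with 4.86% of all genes called, 1.99% higher and 2.87% lower. At an unadjusted p under 0.05 there were 11 of 28, where 21.6% of all genes passed. The high clones had no overlap with the low clones in 4 of the 28, Npc1 above and Cyp51, Msmo1 and Fdft1 below, against 7.17% of all genes (3.0% above and 4.17% below). The median log2 fold change (high over low) of the 28 was -0.13, and that of all genes 0.02. Among the 18 enzymes the median was -0.39, with 15 below 0 and 3 above, 8 at an unadjusted p under 0.05 and 2 called, both lower. With the chromosome deviations taken out 1 of the 28, Cyp51, was called, where 1.27% of all genes were, and the enzyme median was -0.30, and over the 15 enzymes that lie outside chromosomes 8 and 14 it was -0.28, with 12 of 15 below 0. The members and lists were chosen with earlier results of these data known, so these counts and medians are descriptions.

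**Figure D1:**
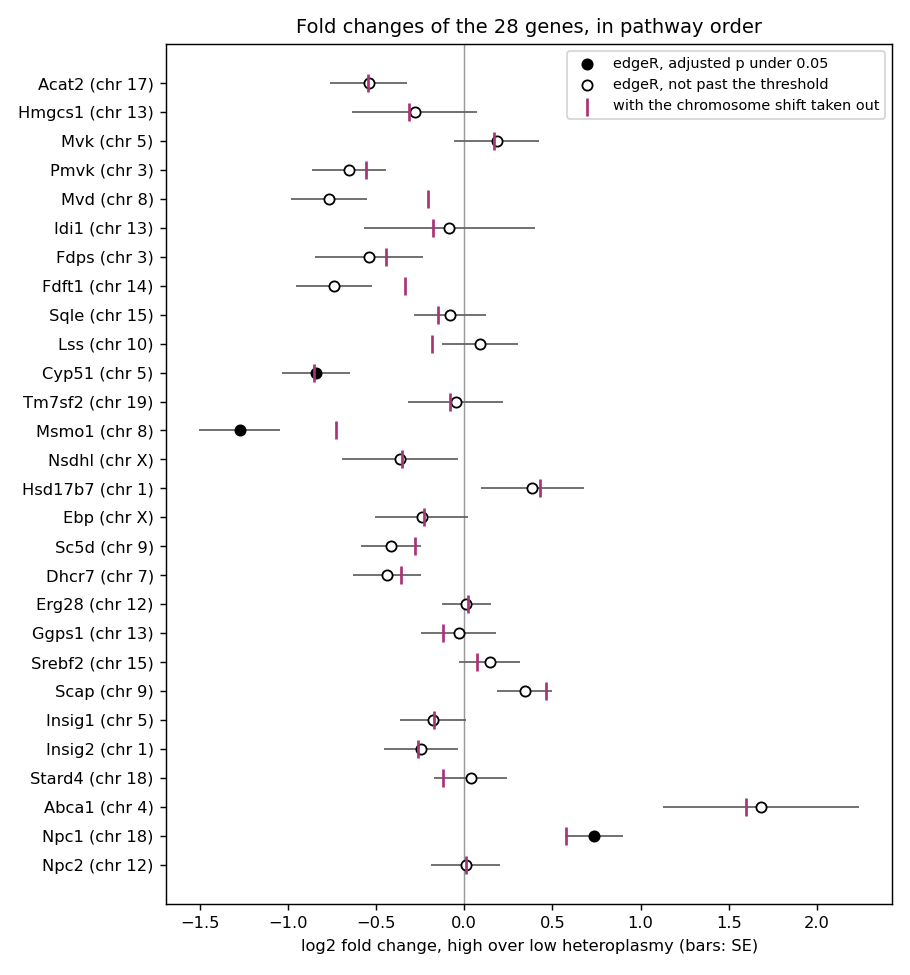
Log2 fold change (high over low, x axis) of the 28 genes in pathway order (y axis, with their chromosomes), from the edgeR fit of 5 high and 5 low clones. Bars are 1 SE, filled circles passed the adjusted p threshold of 0.05, and purple ticks are the chromosome-adjusted values; Msmo1 (-1.27) and Cyp51 (-0.84) lie farthest below 0, and the ticks of Mvd, Msmo1 and Fdft1 lie nearer to 0 than their circles.

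Promoter sequence was examined because these genes are grouped by a shared factor. Windows from 250 bases before to 50 bases after a gene's start were taken from RefSeq (GRCm38.p6), where 23 of the 28 genes matched by symbol. Fdps, Fdft1, Sqle, Stard4 and Npc1 had no entry. The sterol regulatory element letters TCACNCCAC were searched on both strands and found in 1 of the 23, Hmgcs1. They were held by 1.44% of all genes in the table (1.24% of all 32851 windows). A looser form, TCACNNCA, was chosen after that search had returned 1 gene. It was present in 10 of the 23 genes, 8 of them among the 15 enzymes with an entry, and in 15.7% of all genes in the table (13.8% of windows). CCAAT, the letters bound by NF-Y, was present in 19 of 23 genes and in 41.1% of all genes, and the E-box letters CANNTG in 18 of 23 and in 75.0% of all genes. The stretches below, each 30 bases and written 5′ to 3′ on the gene's strand, hold the TCACNNCA match in capitals for the 2 called enzymes, for Pmvk and Hmgcs1 of the mevalonate steps, and for the control genes Srebf2 and Insig2.
Cyp51 (chr5:4104767-4104796, minus strand): ataggccgagaTCACCTCAgcagcgcgtgg
Msmo1, far match (chr8:64733737-64733766, minus strand): tctcactattcTCACTCCAtccgcgcagcc
Msmo1, near match (chr8:64733652-64733681, minus strand): gcacggaccaaTCACTGCAcggcgaaggca
Pmvk (chr3:89454399-89454428, plus strand): ggttggccaatTCACAGCAtctagatggtg
Hmgcs1 (chr13:119690203-119690232, plus strand): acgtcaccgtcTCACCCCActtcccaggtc
Srebf2 (chr15:82147096-82147125, plus strand): atgacgcaccaTCACCCCAtgagccgcttc
Insig2 (chr1:121332732-121332761, minus strand): tttcatcacttTCACATCAggggacagtta
The Hmgcs1 match is the one that also reads TCACNCCAC. The matches lie 88 bases before the RefSeq start in Cyp51, 131 in Pmvk, 137 in Hmgcs1, 162 in Srebf2 and 161 in Insig2. Srebf2 has another match on the opposite strand, 220 bases before its start, which is not printed. In Msmo1 the start used by RefSeq lies 177 bases from the far match and 92 from the near one, and GENCODE M21 annotates an exon of Msmo1 over both, while no annotated exon covers the other stretches printed. A match is a run of letters and not a measured binding site.

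The clearest differences in the enzymes were in Cyp51 and Msmo1. Tm7sf2, which lies between them in pathway order, had a log2 fold change of -0.05. Cyp51 (ENSMUSG00000001467, chr5:4081145-4104746), the cytochrome P450 that removes a methyl group from lanosterol, stood at 172, 199, 226, 161 and 250.4 CPM in low 1 to 5 and at 75.5, 141, 116, 129.97 and 99.9 CPM in high 1 to 5. Every high clone lay below every low clone. The means were 202 ± 37.0 and 112 ± 25.6 CPM (SD, n = 5 each), 1.79-fold lower in the high clones (log2 -0.84, SE 0.19, adjusted p = 0.0328 in edgeR). The chromosome-adjusted value was -0.85 (adjusted p = 0.0491 in edgeR). The edgeR call ended on leaving out high 3 (adjusted p = 0.0694), high 5 (0.0663) or, among the low clones, clone 1 (0.0532), 2 (0.0725), 3 (0.0747) or 5 (0.0652), and without low 2 and low 3 together the adjusted p was 0.162 with a log2 fold change of -0.77 in the same edgeR test.

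Msmo1 (ENSMUSG00000031604, chr8:64718139-64733792), the monooxygenase that oxidises the methyl groups left on the sterol ring after Cyp51, stood at 139.7, 182, 197, 137 and 262 CPM in low 1 to 5 and at 67.2, 77.2, 79.6, 106 and 50.6 CPM in high 1 to 5. The 2 groups did not overlap here either. The means were 184 ± 51.2 and 76.0 ± 20.1 CPM (SD, n = 5 each), a 2.42-fold lower level in the high clones (log2 -1.27, SE 0.23, adjusted p = 0.0159 in edgeR). Taking out the chromosome 8 deviation left -0.73 with an adjusted p of 0.113 in edgeR, which is no longer a call. The call held in each of the 10 edgeR fits that left out 1 library (highest adjusted p 0.0425) and was lost without low 2 and low 3 together (-1.23, adjusted p = 0.0924). The part of the chromosome 8 shift in the Msmo1 difference was not tested beyond these values.

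The other 8 enzymes from squalene onward were not called, 2 with a value above 0 and 6 below. Sqle, squalene epoxidase, which opens this stretch, stood at 118, 149, 155, 119 and 203 CPM in the low clones and at 96.3, 149.6, 171, 169 and 118 CPM in the high clones. Its groups overlapped, with a log2 fold change of -0.08 (SE 0.20). Lss, which closes the ring to lanosterol, had 63.1 to 135 CPM in the low and 66.0 to 111 CPM in the high clones (0.09, SE 0.22), and its chromosome-adjusted value was -0.18. The mean deviation of its chromosome, 10, was lower in the low than in the high clones. Of the late enzymes, the desaturase Sc5d had -0.41 (SE 0.17) and the reductase Dhcr7, which makes cholesterol from its last precursor in one branch, had -0.44 (SE 0.19), with adjusted p-values of 0.179 and 0.214 in edgeR. Their chromosome-adjusted values were -0.28 and -0.36. Hsd17b7, the ketoreductase of the demethylation complex, had the highest value of the 18 enzymes, 0.39 (SE 0.29), and Tm7sf2, a sterol reductase, had -0.05. Nsdhl and Ebp, the X-linked dehydrogenase and isomerase, had -0.37 (SE 0.33) and -0.24 (SE 0.26). Their highest high clone was high 4, at 129.8 and 155 CPM, a library whose X-chromosome genes deviated by 0.44 (log2), and low 3, at 119.8 and 130.3 CPM, deviated by 0.47. Erg28, the scaffold that holds the demethylation enzymes together, differed little among all 10 clones, with 45.04 to 59.4 CPM in the low and 41.0 to 57.8 CPM in the high clones.

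**Figure D2:**
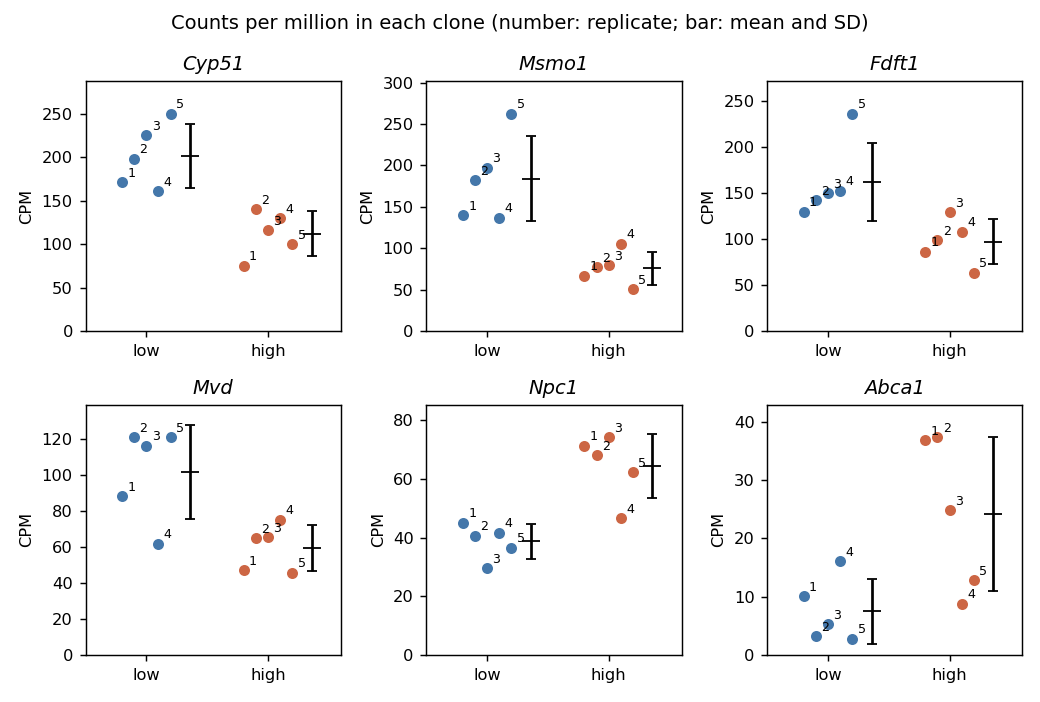
CPM (y axes, linear from 0) of 6 genes in the 5 low (blue) and 5 high (orange) clones, 1 numbered point per clone, with the group mean and SD as a bar. The high clones lie wholly below the low clones for Cyp51, Msmo1 and Fdft1 and wholly above them for Npc1, and the groups overlap for Mvd and Abca1.

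The mevalonate steps had 4 of 5 values below 0, a median of -0.54 and no call in edgeR, with 3 of 5 at an unadjusted p under 0.05. DESeq2 called Pmvk and Mvd lower and limma-voom called neither. Pmvk, phosphomevalonate kinase, stood at 57.9, 59.1, 65.5, 51.9 and 81.3 CPM in low 1 to 5 and at 34.1, 29.96, 58.1, 31.4 and 46.8 CPM in high 1 to 5. Only high 3 reached into the low range. Its log2 fold change was -0.65 (SE 0.21, adjusted p = 0.0941 in edgeR and 0.0473 in DESeq2). The chromosome-adjusted value of Pmvk was -0.56 (adjusted p = 0.207 in edgeR). Its chromosome, 3, deviated by -0.32 in high 2 and -0.36 in high 4, the clones with the lowest Pmvk. Mvd, the decarboxylase that yields isopentenyl diphosphate, stood at 88.3, 121, 116, 61.9 and 121 CPM in the low and at 47.0, 64.9, 65.3, 75.3 and 45.8 CPM in the high clones. Low 4 lay inside the high range and the other low clones above it. The log2 fold change of Mvd was -0.77 (SE 0.22, adjusted p = 0.0647 in edgeR, 0.0148 in DESeq2 and 0.0416 in edgeR without low 4). With the chromosome 8 deviation taken out it was -0.21.

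Acat2, whose product condenses acetyl-CoA at the entry to the pathway, stood at 149, 125, 146, 112 and 244 CPM in the low and at 87.7, 100.9, 113, 139.8 and 91.8 CPM in the high clones. Its log2 fold change was -0.54 (SE 0.22), and -0.32 without low 5. Hmgcs1, the cytosolic HMG-CoA synthase and a widely used readout of SREBP2 activity, stood at 90.7, 197, 145, 94.6 and 284 CPM in low 1 to 5 and at 65.0, 138, 190.0, 161 and 114 CPM in high 1 to 5. The clones of each group spread over a range that covers much of the other, with a log2 fold change of -0.28 (SE 0.35). Mvk, mevalonate kinase, was the exception in sign, at 0.18 (SE 0.24), with 21.9 CPM in high 1 and 45.9 to 52.2 CPM in the other high clones.

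The 3 enzymes between the mevalonate steps and squalene were lower in value and not called by edgeR or limma-voom. One had an unadjusted p under 0.05, and DESeq2 called it lower. This was Fdft1, squalene synthase, which commits farnesyl diphosphate to sterols and stood at 129.8, 142, 149, 152 and 236 CPM in low 1 to 5 and at 86.5, 98.5, 129, 108 and 63.4 CPM in high 1 to 5. Every high clone lay below every low clone, although high 3 and low 1 nearly met. The log2 fold change was -0.74 (SE 0.22, adjusted p = 0.0735 in edgeR and 0.0198 in DESeq2), and -0.34 with the chromosome 14 deviation taken out. Its exons overlap those of Ctsb on the opposite strand over 18.3% of their length, and Ctsb had 162554 counts in all against 28089 for Fdft1. No source used here says whether reads were counted by strand, so the Fdft1 value is uncertain. Fdps, the farnesyl diphosphate synthase, and Idi1, the isopentenyl diphosphate isomerase, were low in counts. Fdps ran from 6.32 to 10.9 CPM in the low and 3.44 to 8.44 CPM in the high clones (-0.54, SE 0.31), and Idi1 from 2.62 to 11.1 and from 1.88 to 12.6 CPM (-0.09, SE 0.48). Ggps1, which turns the same precursor toward protein prenylation, had -0.03.

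Levels can be compared between genes only per length of annotated exon. On that scale Acat2 led the 28 genes in the low clones with 61.1 CPM per kilobase of exon and stood at 41.9 in the high clones, below Insig1 (45.3) and Srebf2 (44.3) there. Mvd (54.7 and 32.1), Insig1 (51.3 and 45.3), Cyp51 (45.7 and 25.5) and Ebp (44.03 and 37.3) came next in the low clones. Msmo1 had 29.9 CPM per kilobase in the low and 12.4 in the high clones. At the lower end were Npc1 (3.42 and 5.70), Tm7sf2 (3.14 and 3.03), Idi1 (2.05 and 1.93), Fdps (2.01 and 1.38) and Abca1 (0.722 and 2.33). Insig1, Cyp51 and Ebp, adjacent in this order, did not differ in the low clones beyond their SD of 9.03, 8.38 and 8.80. Acat2 shares 97.7% identity with Acat3 over 65.6% of its transcript, and Acat3 had 154 counts in all. Fdps shares 26.7% of its exon length with Gm43738 on the same strand, for which no counts were found. Gm13502, with 10 counts, is identical to 22.6% of the Idi1 transcript. No source used here says how reads shared between genes were counted, so the levels of Fdps and Idi1 are uncertain and could be too low. Tm7sf2 shares 12.1% of its exon length with Vps51 on the same strand, and Cyp51 shares 3.76% with Akap9 on the opposite strand, so small parts of these counts could belong to the neighbour.

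**Figure D3:**
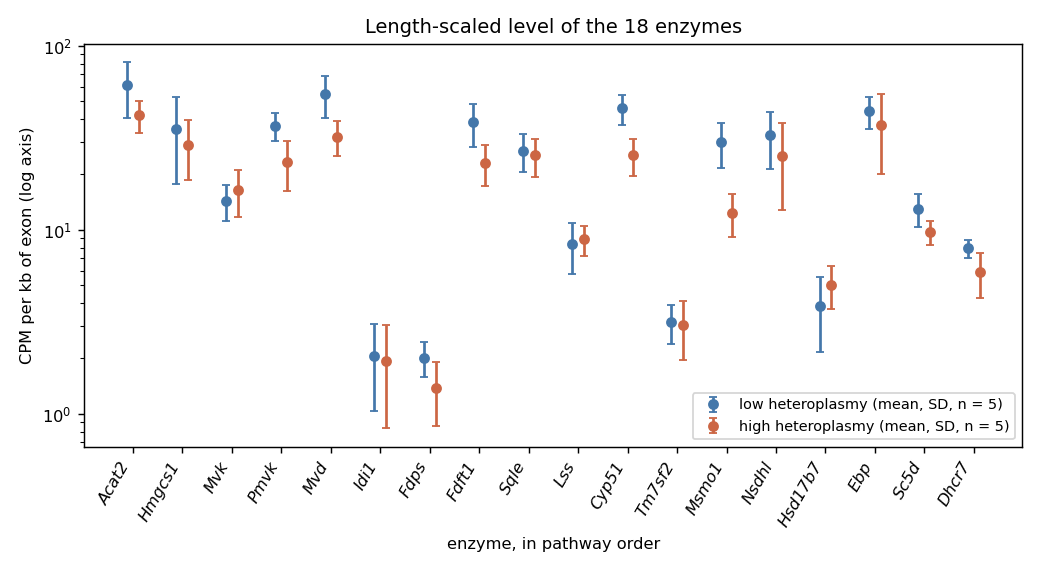
Mean CPM per kilobase of annotated exon (y axis, log scale) of the 18 enzymes in pathway order (x axis), with bars for the SD over 5 low (blue) and 5 high (orange) clones. Acat2 is highest with 61.1 in the low clones, Fdps is lowest with 1.38 in the high clones, and the SD bars of Msmo1 do not meet (29.9 and 12.4).

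None of the 4 control genes was called by edgeR, DESeq2 or limma-voom, and 1 of the 4, Scap, had an unadjusted p under 0.05. Srebf2, which encodes the SREBP2 precursor, stood at 278, 343, 315, 237 and 268 CPM in low 1 to 5 and at 287, 314, 397, 227 and 368 CPM in high 1 to 5. The 2 groups overlapped over most of their range, with means of 288 ± 41.4 and 318 ± 66.9 CPM (SD, n = 5 each) and a log2 fold change of 0.14 (SE 0.17). Scap, the escort and sterol sensor, had 63.3 to 90.8 CPM in the low and 74.3 to 109.9 CPM in the high clones (0.34, SE 0.16, adjusted p = 0.229 in edgeR). Insig1, which retains SCAP and is itself an SREBP target, stood at 150.2, 198, 127, 143 and 174 CPM in the low and at 171, 114, 137, 176 and 103 CPM in the high clones. Its log2 fold change was -0.18 (SE 0.19). Insig2, the other retention protein, had 31.3 to 59.8 CPM in the low and 28.9 to 46.4 CPM in the high clones (-0.25, SE 0.21). These are RNA levels, and the cleaved, nuclear form of SREBP2 was not measured.

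All 4 transport genes had values above 0, with a median of 0.39, and 1 was called. Npc1, on chromosome 18, encodes the lysosomal membrane protein that passes lipoprotein cholesterol out of lysosomes. It stood at 45.1, 40.6, 29.6, 41.7 and 36.5 CPM in low 1 to 5 and at 71.3, 68.0, 74.2, 46.5 and 62.4 CPM in high 1 to 5. No high clone reached down to the low clones, though high 4 was close to low 1. The means were 38.7 ± 5.92 and 64.5 ± 10.9 CPM (SD, n = 5 each), 1.67-fold higher in the high clones (log2 0.74, SE 0.17, adjusted p = 0.0321 in edgeR). Left out one at a time, high 2 (adjusted p = 0.0622), high 3 (0.0714), high 5 (0.0522) and each of low 1 to 5 (0.0531, 0.0653, 0.0688, 0.0590 and 0.0625) ended the edgeR call, as did low 2 with low 3 (0.67, 0.143) and the chromosome adjustment (0.58, 0.0790). Its exons overlap Rmc1 on the opposite strand over 4.52% of their length, with 9769 counts for Rmc1 and 11828 for Npc1.

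Abca1, the exporter of cholesterol to apolipoproteins and an LXR target, had the widest difference of the 28 genes and was not called. It stood at 10.1, 3.21, 5.30, 16.02 and 2.78 CPM in low 1 to 5 and at 36.8, 37.3, 24.8, 8.79 and 12.8 CPM in high 1 to 5. High 4 lay below low 1 and low 4, and high 5 lay below low 4. The fitted fold was 3.21 and the log2 fold change 1.68 (SE 0.56, adjusted p = 0.108 in edgeR and 0.0160 in DESeq2). Npc2, the soluble lysosomal partner of Npc1, had 171 to 286 CPM in the low and 157 to 295 CPM in the high clones, with overlapping groups and a log2 fold change of 0.01. Stard4, a cytosolic sterol carrier and SREBP2 target, had 0.04, and -0.12 with the chromosome deviation taken out.

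The enzymes also varied between clones of 1 group. For each library the median over the 18 enzymes of log2 CPM minus the gene's own mean was 0.07, 0.24, 0.32, -0.16 and 0.68 in low 1 to 5 and -0.54, -0.15, 0.07, 0.12 and -0.50 in high 1 to 5. The groups overlapped on this measure, with means of 0.23 ± 0.31 and -0.20 ± 0.31 (SD, n = 5 each). Low 5 was the highest of the 10 libraries for 11 of the 18 enzymes and above the mean for 17, whereas high 1 was the lowest for 7 and high 5 for 5. High 2 (-0.147), high 3 and high 4 lay above low 4 (-0.157), and high 4 also lay above low 1. With the chromosome deviations taken out, low 5 stood at 0.62 and was the highest for 12 enzymes, high 1 at -0.49 and the lowest for 9, and high 5 at -0.45 and the lowest for 6.

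After the group means were taken out, the 153 pairs of enzymes had a median Pearson r of 0.54 over the 10 libraries, and 147 of the pairs were above 0. The same measure over all 84026166 pairs of tested genes had a median of 0, with 50% above 0. Without low 5 and high 1, chosen after seeing these values, the median over the enzyme pairs was 0.47 and 129 of 153 were above 0. The closest pairs were Hmgcs1 with Sqle (0.95), Sqle with Cyp51 (0.91) and Hmgcs1 with Lss (0.91). Sqle had the highest median r with the other enzymes, 0.79, followed by Msmo1 with 0.73 and Nsdhl with 0.71, and Idi1 had the lowest, 0.26. These correlations share libraries, depth and scaling and are given as a description. The chromosome deviations were not taken out of them. Chromosomes 13, with Hmgcs1 and Idi1, and 10, with Lss, each deviated most upward in the same clone of a group. That clone was low 5 (0.20 and 0.01) and high 5 (0.26 and 0.42). The part of such shifts in the correlations was not tested. The median within-group SD of log2 CPM over the enzymes was 0.38, against 0.37 over all genes, while Abca1 (1.00) and Idi1 (0.91) varied most among the 28 and Erg28 (0.18) least.

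**Figure D4:**
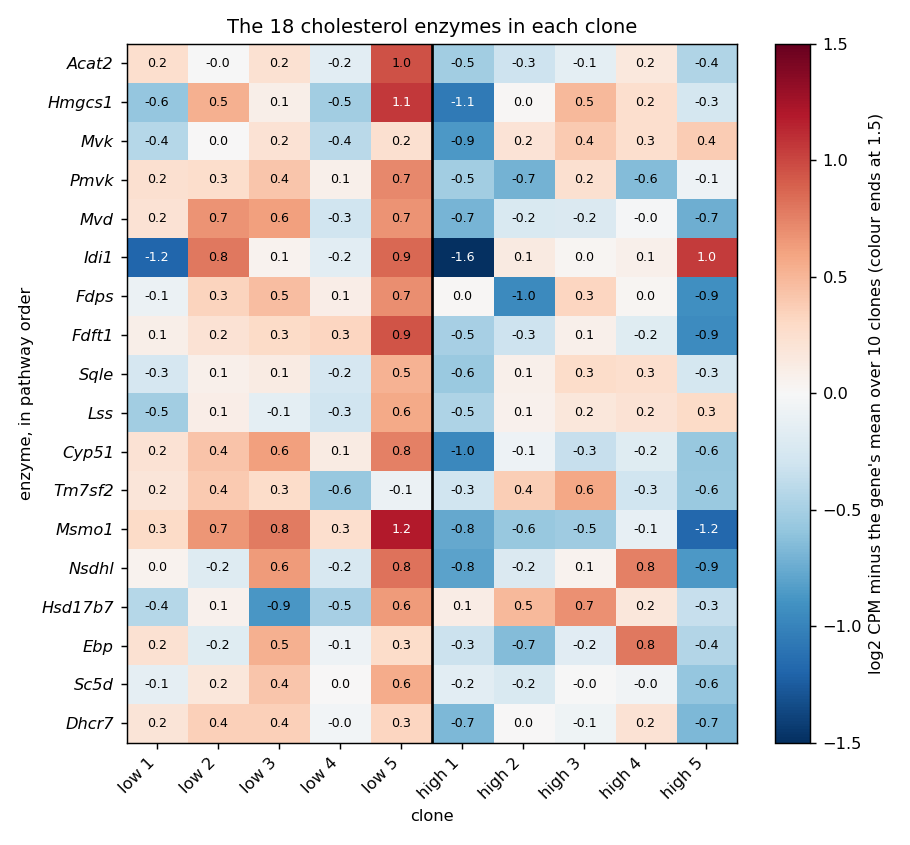
Heat map of log2 CPM minus the gene's own mean over the 10 clones (colour scale, ending at 1.5 in both directions) for the 18 enzymes (rows, pathway order) in each clone (columns). The column of low 5 is mostly red (17 of 18 enzymes above their mean) and those of high 1 and high 5 mostly blue (2 and 3 of 18 above), with high 3 and high 4 at 11 of 18 each.

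Genes that work beside the pathway were read from 6 lists in the same fit. Cyp51 and Sqle both draw electrons from cytochrome P450 reductase, the product of Por. Por fell. The gene, on chromosome 5, stood at 298, 317, 279, 294 and 250.4 CPM in low 1 to 5 and at 197, 179, 128, 152 and 192 CPM in high 1 to 5. Every high clone lay below every low clone. Its log2 fold change was -0.76 (SE 0.15, adjusted p = 0.0210 in edgeR), the chromosome-adjusted value was -0.77 (0.0281), and the call was lost without low 2 (0.0564) and without low 2 and low 3 together (0.119). In the list of 8 tested electron donors and neighbours, Cyb5b on chromosome 8 also fell (-0.73, chromosome-adjusted -0.15), and Cyb5a on chromosome 18 rose (1.26, chromosome-adjusted 1.13 with an adjusted p of 0.0995 in edgeR). The call for Cyb5b was lost without low 2, low 4 or high 3 (adjusted p up to 0.0634 in edgeR), and that for Cyb5a held in 2 of the 10 fits with 1 library left out.

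In the list of oxysterol and LXR genes 4 of 9 tested rose and 0 fell, where 1.99% of all genes were called higher. The other 5 had values below 0, and the median of the list was -0.04. DESeq2 called 4 higher and limma-voom 3. Rxra, the partner receptor of LXR, stood at 30.6, 41.7, 55.6, 38.6 and 28.4 CPM in the low and at 63.2, 137, 126, 88.3 and 109.2 CPM in the high clones (log2 fold change 1.43, SE 0.24, adjusted p = 0.0135 in edgeR). Lpcat3, a phospholipid-remodelling LXR target, stood at 66.1, 65.0, 71.5, 81.5 and 61.4 CPM in the low and at 146, 139, 172, 90.7 and 119.6 CPM in the high clones (0.95, SE 0.17, adjusted p = 0.0163). Both calls held in each of the 10 edgeR fits that left out 1 library, and Lpcat3 was lost with the chromosome adjustment (0.65, 0.0593) and without low 2 and low 3 (0.0994). Mylip, an LXR target that marks lipoprotein receptors for degradation, stood at 6.38, 12.7, 6.19, 3.22 and 4.79 CPM in the low and at 25.1, 13.9, 25.7, 14.99 and 15.7 CPM in the high clones (1.52, SE 0.36, adjusted p = 0.0357), a call that held in 2 of the 10 fits with 1 library left out and was lost with the chromosome adjustment (0.0815).

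Nr1h3, which encodes LXR alpha, was nearly silent in the low clones, with 2 to 17 counts a library (0.342, 0.217, 0.797, 0.377 and 0.109 CPM in low 1 to 5), and had 23 to 1093 counts a library in the high clones (6.91, 9.03, 41.4, 4.34 and 0.765 CPM in high 1 to 5). High 5 lay below low 3, and the other high clones lay above every low clone. The log2 fold change was 5.05 (SE 1.00, adjusted p = 0.0237 in edgeR), and the call was lost without low 1 (0.0580), low 2 (0.0605) or low 4 (0.0568), without low 2 and low 3 together (0.107) and in limma-voom (0.0814). The order of the high clones in Nr1h3, highest in high 3 and lowest in high 5, was not that of Abca1, which was highest in high 2 and lowest in high 4. Abcg1, the other LXR-driven exporter of the list, had a log2 fold change of -0.06, with an SE far larger than this value. With 1 library left out the value ran from -0.80 to 1.51, so the direction of Abcg1 could not be told. Abcg1 stood at 0 to 8.53 CPM in the low and at 0 to 5.89 CPM in the high clones. In the same clones 2 adipocyte markers, Fabp4 (4.25, adjusted p = 0.0181 in edgeR) and Pparg (1.45, 0.0315), rose, while Adipoq, Plin1 and Cidec stayed at or below 0.602 CPM. The summed level of the 5 adipocyte markers was 11.8 to 24.7 CPM in the low and 40.0 to 148 CPM in the high clones, and its part in the LXR values was not tested. In bulk RNA, fewer cells of a type and less RNA per cell cannot be told apart.

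Among genes of SREBP processing and degradation, Erlin2 (-0.66, SE 0.14) and the site-1 protease gene Mbtps1 (-0.61, SE 0.16), which encodes the enzyme that makes the first cut in SREBP, fell. Their adjusted p-values in edgeR were 0.0274 and 0.0491, and the calls held in 4 and 2 of the 10 fits with 1 library left out. Both lie on chromosome 8, and their chromosome-adjusted values were -0.07 and -0.04, neither of them called. Of the 17 isoprenoid-branch genes 2 fell and 0 rose, where 2.87% of all genes were called lower and 1.99% higher. The 2 were Fnta on chromosome 8 (-0.74, chromosome-adjusted -0.17) and Rabggta on chromosome 14 (-0.80, chromosome-adjusted -0.39), subunits of protein prenyltransferases. Their adjusted p-values in edgeR were 0.0157 and 0.0263, the call for Fnta held in all 10 fits with 1 library left out and that for Rabggta in 4, and neither was called with the chromosome adjustment. The median over all 18 processing genes was 0.11 and over the 17 branch genes 0.08.

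Fatty acid synthesis genes, which are driven mainly by SREBP1, gave no call among 15 tested by edgeR or limma-voom and 1 call, higher, in DESeq2. Unadjusted, 2 of the 15 had a p under 0.05. Their median was 0.17 and 12 of 15 were above 0, where 15 of 18 cholesterol enzymes were below 0. Among all 12964 genes tested 6775 were above 0. The cholesterol enzymes varied together between clones, so their signs are not independent, and the difference between the 2 lists was not tested. The smallest p-values of the fatty acid list belonged to the desaturase Scd1 (0.70, SE 0.22, adjusted p = 0.0923 in edgeR) and to Lpin1 (0.55, adjusted p = 0.212). The 19 genes of sterol uptake, storage and transfer gave no call in edgeR or limma-voom, 3 unadjusted p-values under 0.05 and 1 DESeq2 call lower, with a median of 0.13. Soat1, which esterifies cholesterol for storage, had means of 57.1 ± 23.1 and 23.3 ± 16.7 CPM (SD, n = 5 each) which is -1.29 on the log2 scale (SE 0.50, adjusted p = 0.158 in edgeR), and the chaperone gene Lrpap1 had 0.56 (adjusted p = 0.124).

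**Figure D5:**
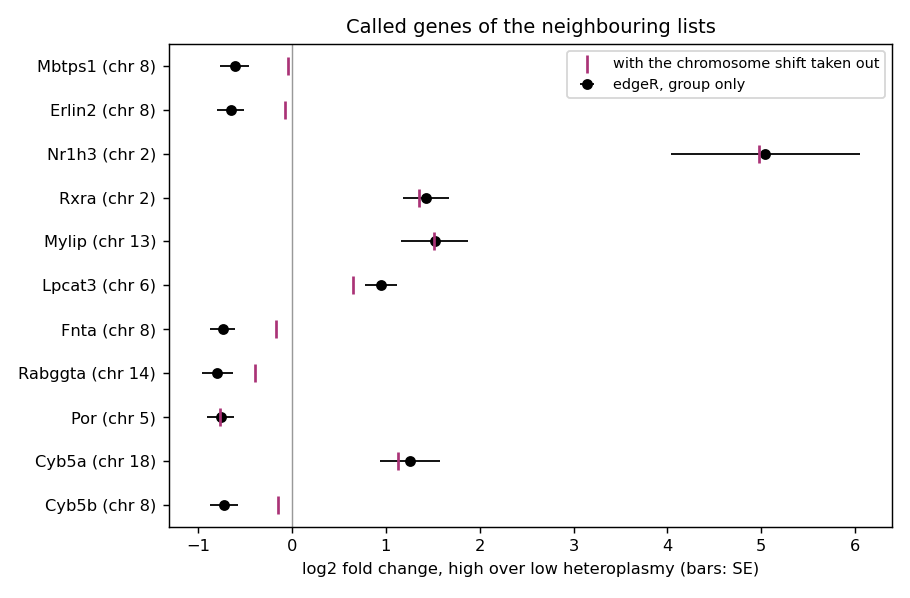
Log2 fold change (high over low, x axis; bars 1 SE) of 11 called genes of the neighbouring lists (y axis, with their chromosomes), with purple ticks for the chromosome-adjusted values. The genes of chromosome 8 (Mbtps1, Erlin2, Fnta, Cyb5b) have ticks between -0.17 and -0.04, whereas those of Por and Rxra lie within 1 SE of their circles.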

How the data were processed

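The deposited table holds raw read counts per Ensembl gene, made by the authors, for the 10 libraries. Their tools, per the submitters' processing notes, were STAR 2.7.8a, R 4.2.1 and DESeq2 1.36.0, listed without roles beside the builds GRCm38 and mm10. No source used here gives the counting program, strand setting or gene annotation. Per the labels, poly(A) RNA was made into directional libraries, and reads were paired-end of 50 bp. A second deposited table of normalized values was not used. Symbols, exons and coordinates came from GENCODE M21 (GRCm38), and 195 IDs had no name there.

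Counts were tested with edgeR 4.0.16 in R 4.3.3 (TMM, filterByExpr by group, robust glmQLFit, glmQLFTest on group, two-sided, Benjamini-Hochberg over 12964 genes). CPM use TMM factors, and log2 CPM a prior count of 2. DESeq2 1.42.0, limma-voom (limma 3.58.1), other scalings and filters, libraries left out, and an offset per chromosome and library (the median deviation of genes with a mean log2 CPM above 3) were alternatives. Near-identical copies were sought with blastn 2.17.0 (at least 97% identity over 20% of a transcript). The scripts were tested on simulated counts. Named genes were all 28 members, every called gene of the other lists, and the 2 smallest p-values of each list; Abcg1 was added after its value was seen, and 1 item is not reported here. The members and lists were chosen with earlier results of these data known. Libraries that share a replicate number had correlated deviations for numbers 1 and 5 (r of 0.46 and 0.16) and not for the other 3 (-0.05 to 0.07), so the numbers were not taken as pairs.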

Additional observations from a re-analysis of the deposited data

Results flagged for a closer look

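In 4 of the 56 groups of 5 clones formed by the 28 genes, 1 clone lay far from the other 4 by the ratio of its gap to the whole range (0.72 to 0.79), where chance gives about 1 in 20. Low 5 had 243.8 CPM of Acat2, with the other low clones at 112 to 149 CPM, and 236.1 CPM of Fdft1, with the others at 129.8 to 152 CPM. High 1 had 21.9 CPM of Mvk, below the 45.9 to 52.2 CPM of the other high clones. High 4 had 155.3 CPM of Ebp, above the 57.0 to 79.8 CPM of the others, in a library whose X-linked genes deviated by 0.44 (log2).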

How the results depend on the processing

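The 630 genes called became 1475 with DESeq2, 1276 at an adjusted p under 0.1, 164 with the chromosome offset, 56 without low 2 and low 3, and 232 to 821 with 1 library left out. The 3 members called became 7 with DESeq2 (Pmvk, Mvd, Fdft1, Abca1, Cyp51, Msmo1 and Npc1), 6 at an adjusted p under 0.1, 1 with the chromosome offset (Cyp51), 0 without low 2 and low 3 (2 fewer libraries), 1 with members that overlap other exons left out (Msmo1), and 1 to 3 with 1 library left out. The medians of the 28 genes and of the enzymes stayed below 0 in the alternatives run. Of 532 alternative values of single members 473 kept direction and side of the threshold, 6 gained a call, 20 lost one and 33 changed sign. The sign changes were in genes near 0. With 1 library left out the log2 fold change ran from -0.44 to 0.020 for Hmgcs1, -0.45 to 0.15 for Idi1, -0.16 to 0.058 for Sqle, -0.017 to 0.28 for Lss, -0.23 to 0.059 for Tm7sf2, -0.18 to 0.096 for Ggps1, -0.071 to 0.14 for Stard4, -0.12 to 0.12 for Npc2 and -0.029 to 0.079 for Erg28. Without low 2 and low 3 it was 0.11 for Idi1, 0.17 for Tm7sf2, 0.039 for Ggps1 and -0.022 for Erg28, and with the chromosome offset -0.18 for Lss and -0.12 for Stard4. The cause was not tested. Same-numbered libraries did not pair, and the replicate block also gave 3 called members, Pmvk, Cyp51 and Msmo1, with Npc1 at an adjusted p of 0.0610 in edgeR; libraries 1 and 5 alone correlated best with their own number. Of the 28, Abca1 (SE 0.56) and Idi1 (SE 0.48) had the widest errors and the largest within-group SD of log2 CPM (1.00 and 0.91).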
